A study of Mus musculus with 28 samples.

Results

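The genes described here were 10 of the 29068 rows of a gene count table, taken by name because their products make, break down or sense prostaglandins. They were Ptgs1, Ptgs2, Ptges, Ptges2, Ptgis, Ptgds, Hpgd, Ptger2, Ptger4 and Ptgfr. All 10 passed the filter on low counts that left 18107 genes for testing. The libraries held total RNA from the wound site of the dorsal skin of MLKL+/+ mice on the C57BL/6J background. The mice were 8 weeks old and had received a 6 mm punch wound that was left to heal naturally. The 28 libraries fell into 7 groups of 4, named Day0, Day3, Day5, Day7, Day10, Day12 and Day14 in the labels. Day0 served as the control. The design text mentions 5 repeats per time, and 4 libraries per day are analysed here. The labels place Day0 at 0 days after injury. The paper's methods list day 1 after wounding as the earliest sampling, of the whole wound with its scab and epithelial edges, whereas its captions use day 1 for the day of wounding itself, which would be Day0 of the labels. The labels do not say whether the Day0 skin was taken before or after the punch. Nothing in the labels says that the 4 libraries of a day came from separate mice, so the p-values measure the spread between libraries, which may be technical.

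Prostaglandins are short-lived lipid mediators made from arachidonic acid, which phospholipase A2 enzymes cut from membrane lipids. The prostaglandin H synthases, also called cyclooxygenases, turn arachidonic acid into a common intermediate, terminal synthases convert it into prostaglandin E2, prostacyclin or prostaglandin D2, and each product acts near its source through its own G protein-coupled receptors until it is taken up and oxidised. In skin, prostaglandin E2 is best known for its part in inflammation, vasodilation and pain, prostacyclin for vasodilation, and prostaglandin D2 for its link to hair follicle biology.

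Library totals ran from 36706513 to 40655764 counts, so depth differed little between days. The Day0 libraries varied more than those of any later day, with a common biological coefficient of variation of 26.5% against 5.77% to 10.8% on the other days. The reported fit shares its estimate of spread over all days, so its standard errors and p-values against Day0 can be too small. Within Day0, replicates 2 and 3 were closest to each other, with a root mean square difference of 0.447 on the log2 scale over all tested genes, and every other pair differed by 0.695 to 0.786. Comparisons against Day0 were therefore repeated with Day0 replicates 2 and 3 only and with Day0 replicates 1 and 4 only, a choice made after the data were seen. Each such p-value leaves out the spread between the pairs, so calls against either pair are a description only. Day0 libraries also held more skeletal muscle RNA. Over 4 muscle genes the mean level was 11.8 to 12.5 log2 CPM (counts scaled to the library total after TMM adjustment) on Day0 and 9.57 to 10.9 on later days, and all 4 were lower on each later day. In these whole-tissue libraries, fewer cells of a type and less RNA per cell cannot be told apart.

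A few genes carry most of what follows, and the 250 bases upstream of the RefSeq start of each are shown, 5′ to 3′ on the gene's strand in build GRCm38.p6 (mm10), so that their regulatory sequence can be read beside their changes. Ptgs2 lies at chr1:150100031-150108227 on the plus strand, with its window at chr1:150099781-150100030. Ptges lies at chr2:30889471-30929863 on the minus strand, with its window at chr2:30903298-30903547. The minus-strand gene Ptgds spans chr2:25466709-25470046, with its window at chr2:25469750-25469999. Hpgd lies at chr8:56294585-56321043 on the plus strand, with its window at chr8:56294302-56294551. The spans come from GENCODE and the starts from RefSeq, and they differ. The windows of Ptges and Ptgds lie inside the gene spans, and that of Hpgd stops short of its span. Capitals mark matches on either strand to GGGCGG, the GC box, or to TGANTCA, the AP-1 site.
Ptgs2: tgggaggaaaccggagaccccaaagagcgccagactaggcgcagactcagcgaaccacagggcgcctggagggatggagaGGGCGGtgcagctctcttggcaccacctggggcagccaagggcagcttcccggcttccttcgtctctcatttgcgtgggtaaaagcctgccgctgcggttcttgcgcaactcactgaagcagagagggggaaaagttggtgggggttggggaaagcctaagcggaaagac
Ptges: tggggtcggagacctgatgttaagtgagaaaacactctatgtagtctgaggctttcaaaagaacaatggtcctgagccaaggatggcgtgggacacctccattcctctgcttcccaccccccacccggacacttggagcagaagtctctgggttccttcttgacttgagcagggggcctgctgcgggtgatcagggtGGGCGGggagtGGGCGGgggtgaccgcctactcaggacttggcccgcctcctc
Ptgds: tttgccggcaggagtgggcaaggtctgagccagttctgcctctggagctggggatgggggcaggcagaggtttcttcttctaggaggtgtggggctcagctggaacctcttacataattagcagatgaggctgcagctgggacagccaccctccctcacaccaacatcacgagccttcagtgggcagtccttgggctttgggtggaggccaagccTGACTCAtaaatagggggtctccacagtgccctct
Hpgd: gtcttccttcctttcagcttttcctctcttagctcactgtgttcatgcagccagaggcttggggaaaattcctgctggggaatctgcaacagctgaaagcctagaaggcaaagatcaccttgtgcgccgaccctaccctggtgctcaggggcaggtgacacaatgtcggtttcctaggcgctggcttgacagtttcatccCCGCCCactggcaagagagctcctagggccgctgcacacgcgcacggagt
The GC box was found in 5 of the 9 members with a RefSeq entry (Ptgs2, Ptges, Hpgd, Ptger4 and Ptgfr), against 32.9% of 27025 mouse promoters of the same length. The AP-1 letters were found in Ptgds alone, 29 to 35 bases before its start, and in 6.87% of all promoters. The E-box CACGTG was found in Ptges2 alone and in 6.05% of all promoters. None of the 9 windows held TATAAA (13% of all promoters), TGACG (17.9%) or the searched NF-kappaB pattern (1.4%). These are matches of letters within short windows and do not show binding. Sequence further upstream, or beside other starts of a gene, was not searched. An antisense gene, Ptgs2os, has exons that overlap the Ptgs2 window.

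Ptgs2, which encodes the inducible cyclooxygenase COX-2, rose from nearly nothing to one of the highest levels among the members. Its FPKM (reads scaled by gene length and library total) was 0.546, 0.238, 0.234 and 0.867 in the 4 Day0 libraries. It was 25.2, 27.8, 27.2 and 32.2 on Day3. On Day5 the libraries were at 31.5, 26.7, 31.2 and 24.3. Every Day3 and Day5 library was far above every Day0 library, and the Day3 and Day5 libraries overlapped one another. The level then came down, to 6.84 to 10.3 on Day7 and 3.93 to 6.00 on Day10, with no overlap between neighbouring days. By Day12 it was 0.482 to 0.756 and by Day14 0.413 to 1.08, within reach of the Day0 libraries. Against Day0 the log2 fold change was 5.97 ± 0.28 (SE) on Day3 and 5.97 ± 0.28 on Day5, a 62.7-fold and a 62.6-fold rise (edgeR quasi-likelihood test, Benjamini-Hochberg adjusted p = 1.44e-16 and 3.02e-16). The SE here and below was worked back from the F statistic of the test. It was 4.27 ± 0.27 on Day7 and 3.30 ± 0.27 on Day10 (edgeR adjusted p = 2.9e-13 and 7.44e-11). On Day12 and Day14 the change was 0.32 ± 0.31 and 0.39 ± 0.31 and did not pass the test (edgeR adjusted p = 0.419 and 0.279). These values depended on the Day0 libraries used. Against replicates 2 and 3 the changes on Day3, Day5, Day7 and Day10 were 6.95, 6.95, 5.26 and 4.29, and against replicates 1 and 4 they were 5.42, 5.38, 3.67 and 2.71, called in each case. On Day12 and Day14 the call itself changed. Without Day0 replicate 4 alone the changes were 0.80 (edgeR adjusted p = 0.0358) and 0.93 (adjusted p = 0.01), and against replicates 2 and 3 they were 1.31 and 1.38 (adjusted p = 0.00225 and 0.000855), whereas against the other pair they were −0.26 and −0.13 (adjusted p = 0.502 and 0.732).

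Neutrophil markers were raised over the same days as Ptgs2, but fell from Day3 to Day5 while Ptgs2 stayed level. All 6 of 6 markers (S100a8, S100a9, Csf3r, Cxcr2, Retnlg and Mmp8) were higher than on Day0 on Day3, Day5, Day7 and Day10. Their mean level was 0.66 to 1.88 log2 CPM on Day0, 8.30 to 8.49 on Day3, 7.14 to 7.34 on Day5 and 5.23 to 5.7 on Day7. It was 3.70 to 3.97 on Day10, 0.79 to 0.99 on Day12 and −0.31 to 0.09 on Day14, where Retnlg had 0 to 1 counts. Of 6 macrophage markers, 6 were higher on Day3 and Day5 and 4 on Day7, but 2 were higher and 4 lower on Day10, when Ptgs2 was still raised. Their mean level was 7.33 to 8.06 log2 CPM on Day0, 8.85 to 8.91 on Day3, 7.08 to 7.23 on Day10 and 5.78 to 5.91 on Day14. The 4 wound edge keratinocyte keratins averaged 4.13 to 6.69 log2 CPM on Day0, 9.22 to 9.51 on Day3 and 8.66 to 8.99 on Day5. They averaged 8.31 to 8.49 on Day10 and 6.13 to 6.74 on Day14. On Day3 to Day10, 3 of 4 were called higher, with 1 lower on Day5, Day7 and Day10. On Day12 and Day14, 2 of 4 were called higher. Brown fat genes were raised too, with 3 of 3 higher on Day3 to Day10 and on Day14, at 3.40 to 4.38 log2 CPM on Day0, 8.08 to 8.49 on Day3, 8.67 to 8.95 on Day5, 4.27 to 4.54 on Day12 and 7.56 to 7.95 on Day14. Of 4 endothelial genes, 3 were higher and 1 lower on Day3, Day5 and Day7, with a mean of 6.04 to 6.64 log2 CPM on Day0 and 6.89 to 7.04 on Day3. The part of any of these cells in the changes of Ptgs2, Ptges and Ptgis was not tested.

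Ptgs1, which encodes the constitutive cyclooxygenase COX-1, ran the other way and was below Day0 on all 6 later days. Its FPKM was 10.1, 12.1, 13.3 and 10.99 on Day0, 6.36, 6.03, 5.89 and 6.12 on Day3, and 2.92, 2.82, 3.31 and 2.93 on Day14. No library of a later day reached the lowest Day0 library. The mean level stood at 6.10 ± 0.20 (SD, n = 4) on Day3, 6.44 ± 0.13 on Day5, 6.71 ± 0.37 on Day7, 4.95 ± 0.20 on Day10, 7.34 ± 0.15 on Day12 and 2.99 ± 0.21 on Day14. The libraries of Day3 did not overlap those of Day10, nor did those of Day10 overlap those of Day14, while Day12, Day7, Day5 and Day3 each overlapped the next in order of level. Against Day0 it changed by −0.87 ± 0.07 on Day3, −1.29 ± 0.07 on Day10 and −2.08 ± 0.07 on Day14 on the log2 scale (edgeR adjusted p = 5.37e-12, 9.81e-15 and 1.18e-18). Each of the 6 falls stayed called in every alternative model and with any 1 library left out, although only that of Day14 exceeds the fold limit that the study used (1.5 on the log2 scale).

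**Figure D1:**
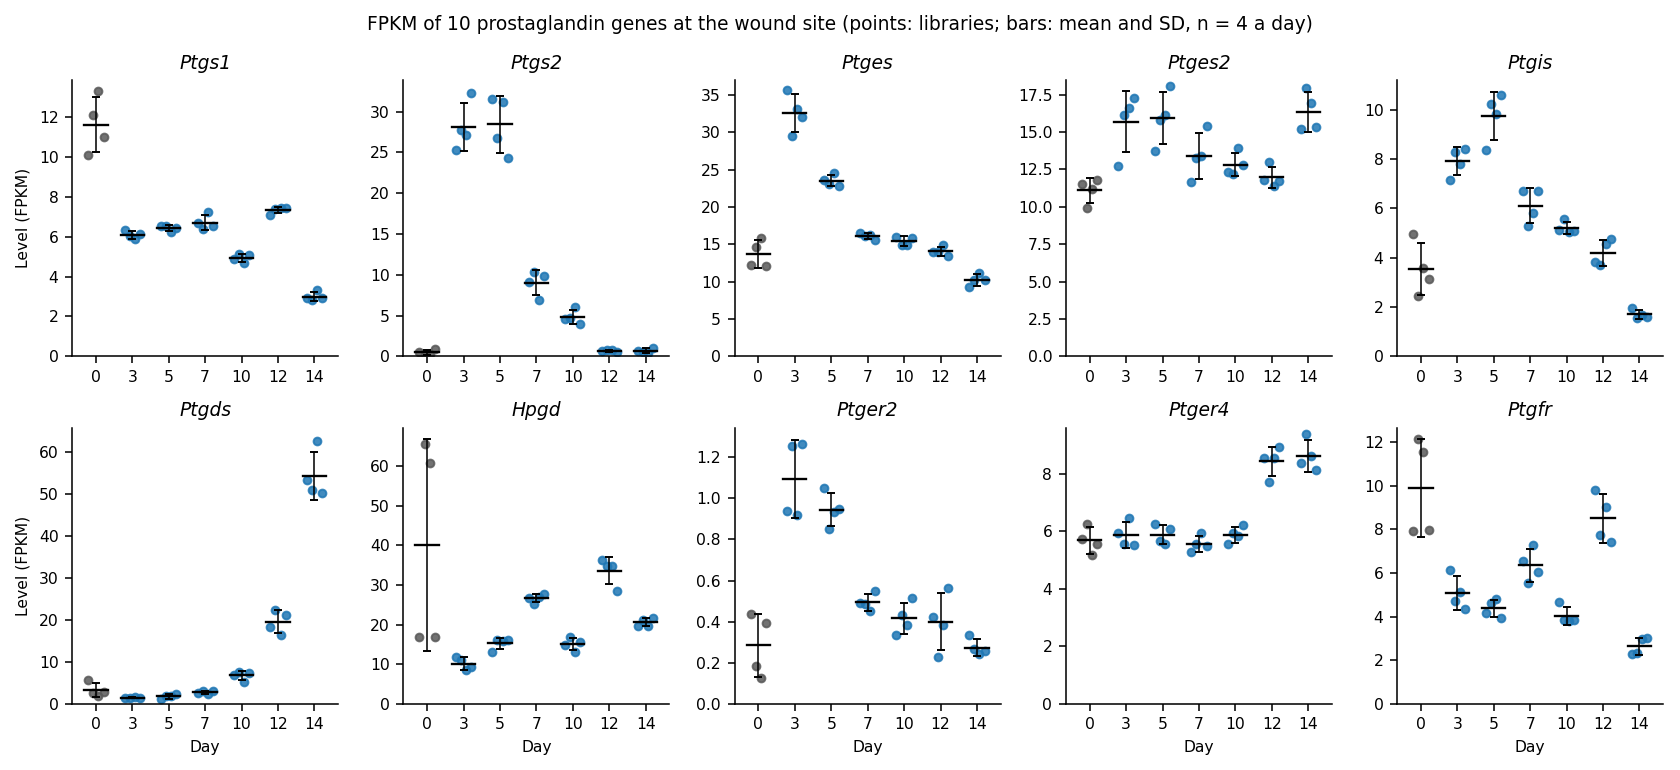
FPKM (y axis, from 0) of each of the 10 genes by day (x axis, days evenly spaced and not to scale), with 1 point per library (grey for Day0, blue for later days) and bars for the mean and SD of 4 libraries. Ptgs2 stands at 24.3 to 32.2 on Day3 and Day5, Ptgds at 50.2 to 62.6 on Day14, and the 4 Day0 points of Hpgd lie in pairs near 17.0 and above 60.8.

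The ratio of the 2 cyclooxygenases within each library turned over. Ptgs2 to Ptgs1, as a ratio of FPKM, was 0.0541, 0.0197, 0.0176 and 0.0789 on Day0, 3.97, 4.61, 4.62 and 5.27 on Day3, and 4.84, 4.08, 4.98 and 3.78 on Day5. It lay near 1 on Day7 (0.948 to 1.62) and Day10 (0.771 to 1.28), then between 0.0649 and 0.102 on Day12 and between 0.125 and 0.367 on Day14. Ptgs1 thus had the higher level on Day0, Day12 and Day14, and Ptgs2 on Day3 and Day5. The mean log2 ratio exceeded that of Day0 by 7.04 on Day3, 6.98 on Day5, 5.26 on Day7, 4.78 on Day10 and 2.59 on Day14. Each of these had an exact two-sided permutation p of 0.0286, the smallest that 4 against 4 libraries can give, and an adjusted p of 0.0429 over the 12 ratio tests made. On Day12 the difference was 1.31 (exact permutation p = 0.0571, adjusted p = 0.0762), and leaving out Day0 replicate 4 alone took it to 1.70 (adjusted p = 0.0381, exact permutation test). The Day12 difference was 2.21 against Day0 replicates 2 and 3 and 0.40 against replicates 1 and 4. The Day14 call was lost without Day14 replicate 1, 2 or 4, at differences of 2.52, 2.68 and 2.32 (adjusted p = 0.0762 in each exact permutation test).

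The synthases that make prostaglandin E2 differed in size of response. Ptges encodes the microsomal enzyme that is known to be induced together with COX-2. Its FPKM was 12.2, 14.7, 15.8 and 12.1 on Day0 and 35.7, 29.5, 33.1 and 32.02 on Day3. The Day5 libraries were at 23.6, 23.1, 24.6 and 22.8. The groups did not overlap, and Day3 was above Day5 in every library. The mean then eased through 16.1 ± 0.38 (SD, n = 4) on Day7, 15.4 ± 0.64 on Day10 and 14.1 ± 0.61 on Day12, 3 days whose libraries overlapped in turn, to 10.3 ± 0.79 on Day14, below every Day0 library. The log2 fold change against Day0 was 1.31 ± 0.07 on Day3 and 0.82 ± 0.07 on Day5, then 0.23 ± 0.07 on Day7 and −0.54 ± 0.07 on Day14 (edgeR adjusted p = 6.16e-15, 1.25e-10, 0.00931 and 2.83e-07). The values of 0.12 ± 0.07 on Day10 and −0.10 ± 0.07 on Day12 did not pass (edgeR adjusted p = 0.186 and 0.249). The Day7 call was lost against Day0 replicates 2 and 3 (0.083, edgeR adjusted p = 0.357) and with the compared days alone (0.20, adjusted p = 0.143). The Day10 value of 0.12 passed without Day0 replicate 3 (0.19, edgeR adjusted p = 0.029), against replicates 1 and 4 (0.29, adjusted p = 0.00131), with library totals (0.17, adjusted p = 0.0478) and in each limma fit of FPKM (0.17 to 0.18, adjusted p = 0.0352 to 0.0382). Against replicates 2 and 3 the Day12 value was a called fall (−0.25, edgeR adjusted p = 0.00422). The Day12 value turned to 0.040 with library totals in place of TMM scaling.

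Ptges2, a membrane-associated enzyme that is not known as an induced one, moved within a narrow band. Its mean FPKM was 11.1 ± 0.84 on Day0 and lay between 12.0 ± 0.70 (Day12) and 16.4 ± 1.33 (Day14) afterwards (SD, n = 4 each). In the order of mean levels, every day overlapped the next. It rose on Day3 (log2 fold change 0.56 ± 0.10), Day5 (0.56 ± 0.10), Day7 (0.27 ± 0.10) and Day14 (0.43 ± 0.10), with edgeR adjusted p = 1.54e-05, 1.58e-05, 0.0237 and 0.000367. The Day7 call was lost without Day0 replicate 2 (0.22, edgeR adjusted p = 0.0798) and without Day7 replicate 4 (0.20, adjusted p = 0.107), as well as with the compared days alone (0.24, adjusted p = 0.0722), in limma voom (0.27, adjusted p = 0.163) and against Day0 replicates 1 and 4 (0.19, adjusted p = 0.174).

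The terminal synthases of the other prostaglandins rose at opposite ends of the time course. Ptgis, which encodes prostacyclin synthase, stood at 4.97, 2.47, 3.57 and 3.15 FPKM on Day0. It was at 7.17, 8.29, 7.81 and 8.43 on Day3 and at 8.36, 10.2, 9.84 and 10.6 on Day5. By Day14 its libraries read 1.95, 1.55, 1.69 and 1.60. The Day3 and Day5 libraries were all above the Day0 libraries and the Day14 libraries all below them. The change peaked at a log2 fold change of 1.503 ± 0.14 on Day5 and ended at −1.19 ± 0.15 on Day14 (edgeR adjusted p = 4.12e-10 and 1.04e-07). The Day10 rise of 0.50 ± 0.14 (edgeR adjusted p = 0.00394) was lost against Day0 replicates 1 and 4 (0.30, adjusted p = 0.0942). The Day12 value of 0.10 (edgeR adjusted p = 0.577) became 0.34 without Day0 replicate 1 (adjusted p = 0.0263). An antisense transcript, 1110018N20Rik, overlaps Ptgis exons and had at most 50 counts in a library.

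Ptgds, which encodes the lipocalin-type prostaglandin D synthase, had the largest rise after that of Ptgs2, and it came late. Its FPKM was 5.74, 2.66, 1.95 and 2.91 on Day0. On Day3 it was 1.49, 1.30, 1.65 and 1.30, below every Day0 library. It was 18.4, 22.4, 16.4 and 21.05 on Day12 and 53.3, 50.8, 62.6 and 50.2 on Day14. Day10, at 5.21 to 7.65, overlapped Day0, while the Day12 and Day14 libraries were above all earlier libraries and apart from each other. The log2 fold change against Day0 ran from −1.15 ± 0.25 on Day3 through 0.97 ± 0.22 on Day10 and 2.41 ± 0.21 on Day12 to 3.91 ± 0.22 on Day14, a 15.0-fold rise (edgeR adjusted p = 0.000198, 0.000494, 5.25e-10 and 2.44e-14). The Day5 fall of 0.85 ± 0.24 (edgeR adjusted p = 0.00325) was lost without Day0 replicate 1 (−0.43, adjusted p = 0.0632), with the compared days alone (−0.87, adjusted p = 0.0661), in limma voom (−0.78, adjusted p = 0.115) and against Day0 replicates 2 and 3 (−0.33, adjusted p = 0.216). The Day7 value of −0.25 (edgeR adjusted p = 0.382) was a called fall against replicates 1 and 4 (−0.64, adjusted p = 0.0168). Its counts were 41 to 280 up to Day10 and 618 to 2302 afterwards. Hair follicle keratins also changed, not always with Ptgds. The 4 genes Krt25, Krt27, Krt71 and Krt35 averaged 5.18 to 7.93 log2 CPM on Day0, −0.90 to 0.77 on Day3, 0.33 to 1.06 on Day5, 6.77 to 7.36 on Day7, 5.40 to 5.57 on Day10, 9.24 to 9.67 on Day12 and 9.15 to 9.55 on Day14, with 4 of 4 called lower on Day3 and Day5 and 4 of 4 called higher on Day12 and Day14. On Day10 they went the other way from Ptgds, with 3 of 4 called lower while Ptgds was called higher. Krt35 had 3 to 20 counts on Day3. The part of the follicles in the change of Ptgds was not tested. Between Day12 and Day14 the keratins went both ways, Krt35 from 10342 to 13587 counts to 20032 to 26251 and Krt27 from 18453 to 24915 counts to 9828 to 12191.

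Hpgd, which encodes the hydroxyprostaglandin dehydrogenase that starts the inactivation of prostaglandins, was lowest on Day3. Its FPKM was 17.0, 65.5, 60.8 and 17.0 on Day0. It was 11.9, 11.1, 8.55 and 9.17 on Day3 and 13.1, 16.0, 15.8 and 16.0 on Day5. On Day7 it was 26.8, 25.3, 26.9 and 27.8. All Day3 and Day5 libraries were below all Day0 libraries, but the Day0 libraries lay in 2 pairs, replicates 1 and 4 low and replicates 2 and 3 high. On Day10 the libraries read 14.9, 16.9, 13.1 and 15.5. They read 36.3, 34.8, 34.7 and 28.5 on Day12 and 19.7, 21.2, 19.8 and 21.7 on Day14, so the level moved down, up and down again after Day7 without overlap between these days. Against all 4 Day0 libraries the log2 fold change was −1.92 ± 0.28 on Day3, −1.35 ± 0.27 on Day5, −1.46 ± 0.27 on Day10 and −1.09 ± 0.27 on Day14 (edgeR adjusted p = 7.72e-07, 9.98e-05, 5.45e-05 and 0.000901). It was −0.59 ± 0.26 on Day7 and −0.40 ± 0.26 on Day12 (edgeR adjusted p = 0.066 and 0.224). Leaving out either low Day0 library made both pass, at −0.84 and −0.63 without replicate 1 (edgeR adjusted p = 0.00264 and 0.0219) and −0.84 and −0.63 without replicate 4 (adjusted p = 0.00272 and 0.022). Only the Day3 fall kept its direction and its call against either pair, at −2.57 against replicates 2 and 3 and −0.64 against replicates 1 and 4 (edgeR adjusted p = 4.29e-21 and 6.42e-06). The pairs follow the Day0 levels of Hpgd itself, so p-values against a pair leave out most of its Day0 spread. The Day14 call was also lost when only the libraries of the compared days were fitted (−1.01, edgeR adjusted p = 0.071). On log2 CPM the Day14 libraries overlapped those of Day0 (exact two-sided permutation p = 0.429). Against replicates 1 and 4 the Day5, Day10 and Day14 values were −0.11, −0.23 and 0.23, none called, and Hpgd was higher on Day7 and Day12, by 0.65 and 0.85 (edgeR adjusted p = 1.05e-05 and 1.91e-07). Against replicates 2 and 3 it was lower on all 6 days, by −1.05 to −2.57. The same pairs of Day0 libraries differed in the fibroblast markers, at 11.6 log2 CPM in replicates 2 and 3 against 10.5 and 9.90 in replicates 1 and 4, and in the wound edge keratins, at 4.13 and 4.26 against 6.69 and 5.61. Skeletal muscle (11.8 each against 12.5 each) and basal keratinocyte genes (9.94 and 10.03 against 10.6 and 10.7) were lower in replicates 2 and 3, and mast cell (6.62 and 6.60 against 6.32 and 6.28) and endothelial genes (6.64 and 6.58 against 6.27 and 6.04) were higher. Neutrophil genes (0.80 and 0.66 against 1.88 and 1.15) were lower and macrophage genes (8.03 and 8.06 against 7.89 and 7.33) higher. Hair follicle genes (6.05 each against 7.93 and 5.18), adipocyte genes (7.97 and 7.92 against 7.60 and 8.15) and brown fat genes (3.54 and 4.12 against 3.40 and 4.38) did not split by pair. Nor did myofibroblast genes (7.16 and 7.13 against 7.48 and 7.15). The part of any of these cells in the Hpgd difference was not tested.

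**Figure D2:**
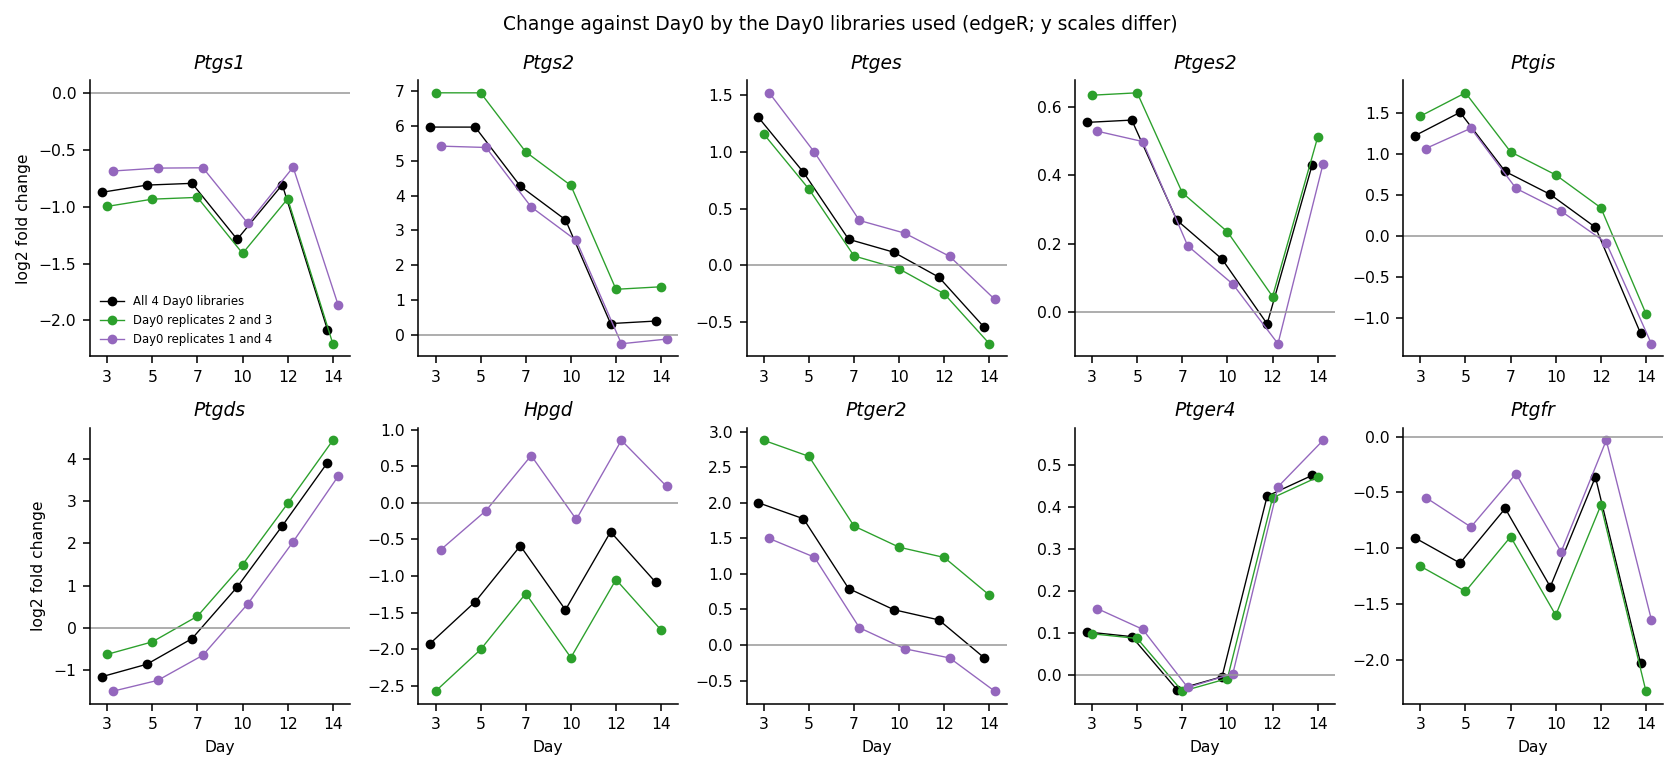
The log2 fold change of each gene against Day0 (y axis, scales differ) on 6 days (x axis, evenly spaced), from edgeR with all 4 Day0 libraries (black), replicates 2 and 3 only (green) and replicates 1 and 4 only (purple). The 3 lines run in parallel because only the reference changes, they lie close together for Ptger4, and those of Hpgd fall on both sides of 0 on Day7, Day12 and Day14, at −1.24 and 0.65 on Day7.

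The fold changes between later days do not rest on the Day0 levels, although the Day0 libraries entered the shared estimate of spread behind their p-values. Hpgd was 2.52-fold higher on Day7 than on Day3 (log2 1.33 ± 0.27, edgeR adjusted p = 0.000204) and 1.79-fold higher on Day14 than on Day3 (0.84 ± 0.27, adjusted p = 0.0089). Ptges fell by 1.08 ± 0.07 on the log2 scale from Day3 to Day7 and Ptgs2 by 1.70 ± 0.21 (edgeR adjusted p = 1.17e-12 and 1.67e-07). From Day7 to Day14, Ptgs2 fell by a further 3.88 ± 0.26 and Ptgis by 1.97 ± 0.15, while Ptgds rose by 4.16 ± 0.23, or 17.8-fold (edgeR adjusted p = 5.37e-13, 6.79e-12 and 7.2e-15). Of the 10 members, 7 were called between Day3 and Day7 against 50% of all tested genes, 2 higher on Day7 (25.8%) and 5 lower (24.2%). Between Day7 and Day14, 8 were called (61.6%), 2 higher on Day14 (27.9%) and 6 lower (33.7%), and between Day3 and Day14, 9 (67%), 3 higher on Day14 (34.2%) and 6 lower (32.8%). By the study's rule 1, 3 and 5 members passed in these comparisons, where 9.02%, 11.8% and 18.6% of all tested genes did. Leaving out 1 library added 2 calls, the rise of Ptges2 from Day7 to Day14 without Day7 replicate 4 (0.31, edgeR adjusted p = 0.0108) and the fall of Ptger4 from Day3 to Day7 without Day3 replicate 2 or 4 (−0.21 each, adjusted p = 0.0268 and 0.0281). Other fits changed calls as well. The fall of Hpgd from Day7 to Day14 passed with the compared days alone (−0.43, edgeR adjusted p = 5.8e-06) and in limma voom (−0.50, adjusted p = 0.0123). The rise of Ptgfr from Day3 to Day7 passed with upper quartile factors, the compared days alone and limma voom (0.27 to 0.35, adjusted p = 0.024 to 0.0412). The rise of Ptges2 from Day7 to Day14 passed in 5 fits (0.23 to 0.29), and its fall from Day3 to Day7 was lost with upper quartile factors (−0.20, edgeR adjusted p = 0.0921) and in both unfiltered limma fits of FPKM (−0.21 and −0.22, adjusted p = 0.0552 and 0.0535). In a joint test for any difference among Day3 to Day14, all 10 members passed, as did 85.1% of all tested genes.

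The balance of Ptges to Hpgd, the induced synthase of prostaglandin E2 over the enzyme that starts its breakdown, was compared as a ratio of FPKM within each library. It was 0.718, 0.224, 0.260 and 0.716 on Day0. On Day3 it was 3.01, 2.66, 3.87 and 3.49, and on Day5 1.80, 1.44, 1.55 and 1.42. Ptges stood above Hpgd in every Day3 and Day5 library and below it in every Day0, Day7, Day12 and Day14 library, and Day10 lay around 1 (0.880 to 1.14). The mean log2 ratio was above that of Day0 by 2.96 on Day3, 1.90 on Day5 and 1.30 on Day10 (exact two-sided permutation p = 0.0286, adjusted p = 0.0429 over the 12 ratio tests). These differences depended on the Day0 pair. Against replicates 2 and 3 they were 3.74, 2.68 and 2.09, and against replicates 1 and 4 they were 2.17, 1.11 and 0.52, and 2 against 4 libraries are too few for a call. The Day5 call was lost without Day5 replicate 1 (1.82) and the Day10 call without any 1 of the Day10 libraries (1.25 to 1.38), with an adjusted p of 0.114 in each exact permutation test. On Day7, Day12 and Day14 the differences were 0.54, 0.017 and 0.26 (exact permutation p = 0.429, 0.943 and 0.571), at 1.32, 0.80 and 1.04 against replicates 2 and 3 and −0.25, −0.77 and −0.53 against replicates 1 and 4. A ratio of mRNA levels is not a measurement of prostaglandin E2.

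**Figure D3:**
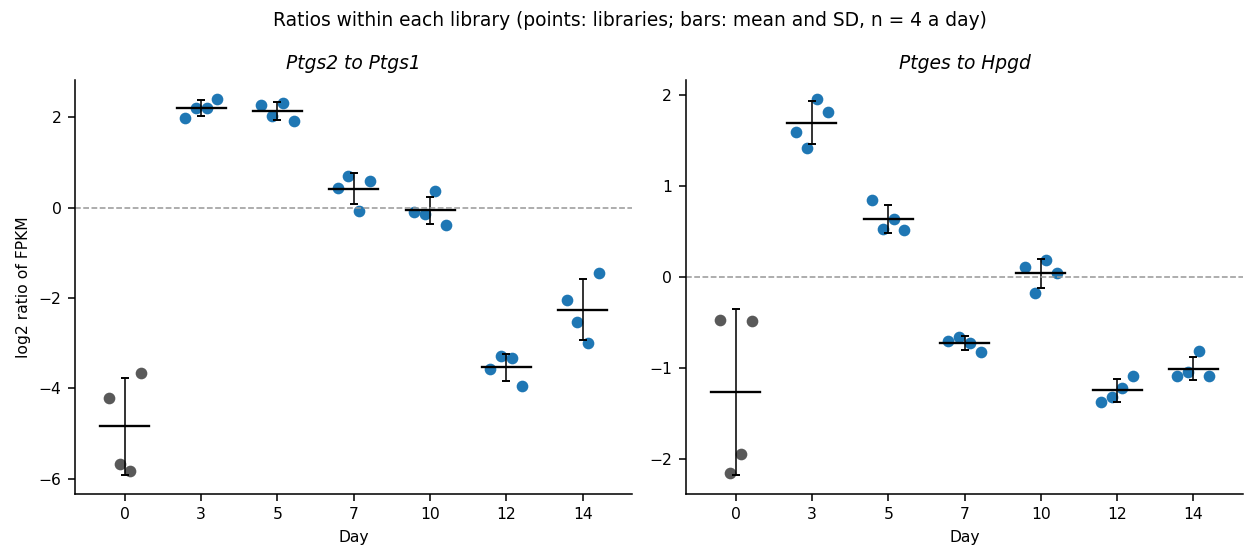
The log2 ratio of FPKM (y axis) of Ptgs2 to Ptgs1 and of Ptges to Hpgd in each library by day (x axis, evenly spaced), with grey points for Day0, blue points for later days, bars for the mean and SD of 4 libraries and a dashed line at equal levels. On Day3 the mean log2 ratios are 2.20 and 1.69, and on Day0 they are −4.84 and −1.27.

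Among the receptors, Ptger2 rose early, Ptger4 rose late and Ptgfr fell, on Day12 only weakly. Ptger2 encodes EP2, a receptor for prostaglandin E2 that raises cyclic AMP. It was the least expressed member, at 0.435, 0.184, 0.124 and 0.393 FPKM on Day0, or 21 to 73 counts. It was at 0.939, 1.25, 0.917 and 1.27 on Day3 and 1.05, 0.853, 0.932 and 0.947 on Day5. Those 2 days lay above every Day0 library and overlapped each other. Its log2 fold change was 2.00 ± 0.27 on Day3 and 1.78 ± 0.27 on Day5, or 4.01-fold and 3.43-fold (edgeR adjusted p = 2.11e-07 and 1.9e-06). The Day7 rise of 0.79 ± 0.27 (edgeR adjusted p = 0.0165) was lost without Day0 replicate 2 (0.64, adjusted p = 0.0646) and without Day0 replicate 3 (0.55, adjusted p = 0.0736), as well as with the compared days alone (0.77, adjusted p = 0.12), in limma voom (0.98, adjusted p = 0.0677) and against Day0 replicates 1 and 4 (0.24, adjusted p = 0.428). Against all 4 Day0 libraries Day10, Day12 and Day14 were not called, and without Day0 replicate 1 Day10 was (0.79, edgeR adjusted p = 0.0219). Against replicates 2 and 3, Day10 and Day12 were called higher (1.38 and 1.23, edgeR adjusted p = 0.000174 and 0.000694), and the Day3 and Day5 rises were 2.88 and 2.65, beside 1.499 and 1.24 against replicates 1 and 4. The Day14 value had opposite signs against the Day0 pairs, 0.70 against replicates 2 and 3 and −0.65 against replicates 1 and 4 (edgeR adjusted p = 0.0417 and 0.0278). Antisense genes overlap Ptger2 exons, and since strand use in counting is not given in the sources used here, reads of the gene and of these partners cannot be told apart.

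Ptger4 encodes EP4, the other receptor for prostaglandin E2 that raises cyclic AMP. Its level was flat over the days when Ptger2 was up. Its mean FPKM was 5.68 ± 0.46 on Day0 and 5.56 ± 0.27 to 5.89 ± 0.33 from Day3 to Day10 (SD, n = 4 each), with all these days overlapping. It was 8.57, 7.71, 8.54 and 8.93 on Day12 and 8.37, 9.39, 8.63 and 8.12 on Day14, above every earlier library. Against Day0 this was a log2 fold change of 0.43 ± 0.07 on Day12 and 0.48 ± 0.07 on Day14 (edgeR adjusted p = 1.85e-05 and 1.77e-06). From Day3 to Day10 it lay between −0.034 and 0.10, each with an SE of 0.07 (edgeR adjusted p = 0.21 to 0.975), although the Day3 value reached 0.18 without Day3 replicate 2 (adjusted p = 0.0478) or without Day3 replicate 4 (adjusted p = 0.05). The gene Ttc33, on the opposite strand, shares exonic positions with Ptger4 and had up to 985 counts in a library.

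Ptgfr, the receptor for prostaglandin F2α, had FPKM values of 7.94, 12.1, 11.6 and 7.95 on Day0, and again replicates 2 and 3 were the high pair. Its levels were 4.33 to 6.14 on Day3 and 3.95 to 4.82 on Day5, then 5.54 to 7.28 on Day7, 3.80 to 4.67 on Day10 and 7.41 to 9.82 on Day12. The Day14 libraries were at 2.30, 2.33, 2.95 and 3.00, the lowest of the series. All days but Day12 lay wholly below Day0. Ptgfr fell, with a log2 fold change of −0.91 ± 0.14 on Day3, −1.13 ± 0.14 on Day5, −0.64 ± 0.13 on Day7, −1.35 ± 0.14 on Day10 and −2.03 ± 0.14 on Day14 (edgeR adjusted p = 1.43e-06, 4.86e-08, 0.000233, 4.76e-09 and 1.41e-12). The Day12 fall of 0.36 ± 0.13 (edgeR adjusted p = 0.0275) was lost without Day0 replicate 2 (−0.24, adjusted p = 0.148) or 3 (−0.28, adjusted p = 0.114) and without Day12 replicate 2 (−0.32, adjusted p = 0.0869) or 4 (−0.30, adjusted p = 0.0999). It was also lost with library totals (−0.22, edgeR adjusted p = 0.179), with the compared days alone (−0.36, adjusted p = 0.119), against Day0 replicates 1 and 4 (−0.03, adjusted p = 0.865), in limma voom (−0.35, adjusted p = 0.0624) and in each limma fit of FPKM (−0.18 to −0.20, adjusted p = 0.195 to 0.246). Mast cell markers were also low when Ptgfr was lowest. Their mean over 5 genes was 6.28 to 6.62 log2 CPM on Day0, 5.80 to 6.03 on Day3, 6.25 to 6.43 on Day5, 6.26 to 6.43 on Day7, 5.62 to 5.75 on Day10, 6.35 to 6.58 on Day12 and 4.99 to 5.40 on Day14. On Day3, Day10 and Day14, 4 of 5 were called lower, and 1 was called higher on Day14. On Day5 and Day7 their scores overlapped Day0 and 1 of 5 was called lower, while Ptgfr was lower on both days. Fibroblast markers, at 9.90 to 11.6 log2 CPM on Day0, were at 10.7 to 10.9 on Day3, 11.2 to 11.3 on Day5, 11.6 to 11.7 on Day7, 11.4 to 11.5 on Day10, 11.2 to 11.4 on Day12 and 9.94 to 10.1 on Day14. On Day14, when Ptgs1, Ptges, Ptgis and Ptgfr were at their lowest, 5 of 5 fibroblast and 6 of 6 macrophage markers were called lower and 4 of 4 hair follicle markers higher, and the fibroblast score lay within the Day0 range. On Day10, 4 of 5 fibroblast markers were called higher and 1 lower, 2 of 6 macrophage markers higher and 4 lower, and 3 of 4 hair follicle markers lower. The part of any of these cells in the changes of Ptgfr, Ptgs1, Ptges and Ptgis was not tested.

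**Figure D4:**
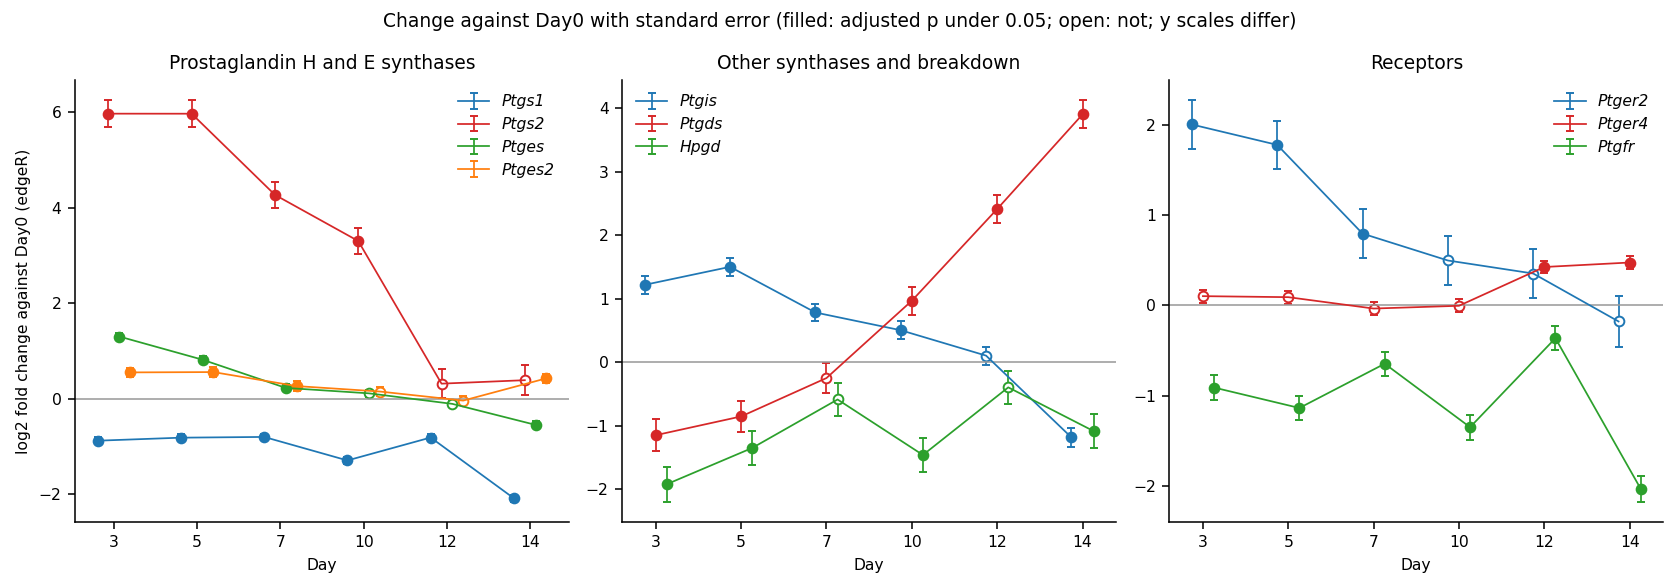
The log2 fold change against Day0 (y axis, scales differ) with a standard error worked back from the F statistic for the cyclooxygenases and prostaglandin E synthases, the other synthases with Hpgd, and the receptors, on 6 days (x axis, evenly spaced), where filled points passed an edgeR adjusted p of 0.05 and open points did not. Ptgs2 starts at 5.97 and falls to 0.39 while Ptgds climbs from −1.15 to 3.91.

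Counted by day, 9 of the 10 members passed the test against Day0 on Day3, where 66.6% of all tested genes did. Of these, 5 were higher (31.8% of all genes) and 4 lower (34.8%). On Day5 the count was 9 (59.5%), with 5 higher (29%) and 4 lower (30.6%). On Day7 it was 7 (50.4%), with 5 higher (25.6%) and 2 lower (24.8%), and on Day10 it was 6 (50.4%), with 3 higher (23.5%) and 3 lower (26.9%). Day12 had 4 (47.3%), 2 higher (21.7%) and 2 lower (25.6%), and Day14 had 8 (62.7%), 3 higher (28.2%) and 5 lower (34.5%). By the study's rule of a log2 fold change over 1.5 and an unadjusted p under 0.05, 3, 3, 1, 1, 1 and 3 members passed on these days, where 18.9%, 13.9%, 9.4%, 9.47%, 7.39% and 14% of all tested genes did. With 10 genes and backgrounds this high, none of these shares was tested or is read as a result about the members as a group. The median log2 fold change of the members was 0.33 on Day3 and −0.36 on Day14, beside −0.03 and −0.06 over all tested genes. On TMM-scaled log2 CPM, libraries did not overlap Day0 for 9 members on Day3, 8 on Day5, 5 on Day7, 4 on Day10, 3 on Day12 and 7 on Day14, where 56.8%, 46.1%, 39.2%, 41.4%, 38.7% and 50.7% of all tested genes did not. On FPKM the Day10 count was 6, since Ptges2 and Ptgis did not overlap on that scale, and the other counts were the same. Only Ptgs1 and Ptgfr were called on all 6 days, both lower, and the Day12 call of Ptgfr was not stable. The Day12 count was 9 against Day0 replicates 2 and 3 alone, and the Day7 count was 4 when only the libraries of the 2 days compared were fitted. Shares of all tested genes called in these fits were not computed, so these counts are not read as a result.

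Other genes of the pathway were described from a list of 32, of which 30 passed the filter and Pla2g4b and Pla2g10 did not, with at most 6 counts in any library. Against Day0, 23, 21, 22, 22, 21 and 20 of the 30 were called on Day3, Day5, Day7, Day10, Day12 and Day14, where 66.6%, 59.5%, 50.4%, 50.4%, 47.3% and 62.7% of all tested genes were. The number called higher was 11 on Day3 (31.8% of all tested genes) and 5 on Day14 (28.2%), and the number called lower was 12 (34.8%) and 15 (34.5%). Their median log2 fold change went from 0.04 on Day3 to −0.20 on Day14.

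Of the enzymes that release arachidonic acid, 12 were tested, and 6 were lower and 3 higher on Day3 (34.8% and 31.8% of all tested genes) and 7 lower and 2 higher on Day10 (26.9% and 23.5%). Pla2g4d, a cytosolic phospholipase of stratified epithelia, had 0, 1, 0 and 1 counts on Day0, 80, 66, 52 and 92 on Day3 and 83, 51, 40 and 91 on Day10. It was called higher on Day3 to Day10 and not on Day12 or Day14, when it had 0 to 9 counts. Pla2g4c rose later, to 77 to 91 counts on Day12 from 4 to 16 on Day0 (log2 fold change 3.19 ± 0.34, edgeR adjusted p = 1.72e-08). Of the secreted phospholipases, Pla2g5 ended at −4.04 ± 0.30 on Day14, Pla2g2d was at −3.17 ± 0.39 on Day10 and Pla2g2f, at 58.9 ± 8.38 FPKM on Day0 (SD, n = 4), was at −1.69 ± 0.09 on Day10 (edgeR adjusted p = 4.05e-12, 1.35e-07 and 9.54e-15). Pla2g2d had 211 to 1293 counts among the Day0 libraries. Pla2g4e changed by 1.18 ± 0.13 on Day3 and −1.63 ± 0.14 on Day14 (edgeR adjusted p = 6.17e-09 and 5.5e-11).

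Among 6 further terminal synthases and related reductases, 3 were higher and 1 lower on Day3 (31.8% and 34.8% of all tested genes) and 1 was higher and 3 were lower on Day14 (28.2% and 34.5%). These shares of all genes apply to the next groups too, and counts over so few genes are a description. Hpgds, the hematopoietic prostaglandin D synthase, fell by 1.52 ± 0.12 on Day14 (edgeR adjusted p = 1.28e-11), the day on which Ptgds, which makes the same product, was highest. Hpgds had 295 to 493 counts then and 805 to 1406 on Day0. In the group of 5 breakdown and transport genes, 3 were higher and 2 lower on Day3, and 1 was higher and 3 were lower on Day14. Abcc4, an exporter of prostaglandins, was lower on all 6 days and reached −1.65 ± 0.12 on Day14 (edgeR adjusted p = 4.49e-12).

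Of the 7 other genes in the receptor group, which includes the receptor regulator Ptgfrn, 2 were higher and 3 lower on Day3. On Day14, 1 was higher and 4 were lower. Ptger3, which encodes EP3, a receptor for prostaglandin E2 that lowers cyclic AMP, was at 22.0, 39.9, 37.9 and 30.6 FPKM on Day0 and at 4.64, 4.33, 4.88 and 3.73 on Day3. Every Day3 library was far below every Day0 library. Its log2 fold change was −2.83 ± 0.13 on Day3 and −2.32 ± 0.12 on Day5 (edgeR adjusted p = 4.43e-17 and 2.89e-15), the days on which Ptger2 was highest, and it remained lower through Day14 (−1.63 ± 0.12, adjusted p = 2.32e-12). Ptgdr, the DP1 receptor for prostaglandin D2, was lower on all 6 days and at −2.79 ± 0.43 on Day14 (edgeR adjusted p = 2.39e-06), from 50 to 95 counts on Day0 to 7 to 15. Tbxa2r, the thromboxane receptor, changed by −1.77 ± 0.21 on Day3 and 0.66 ± 0.18 on Day10 (edgeR adjusted p = 2.37e-08 and 0.00351).

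**Figure D5:**
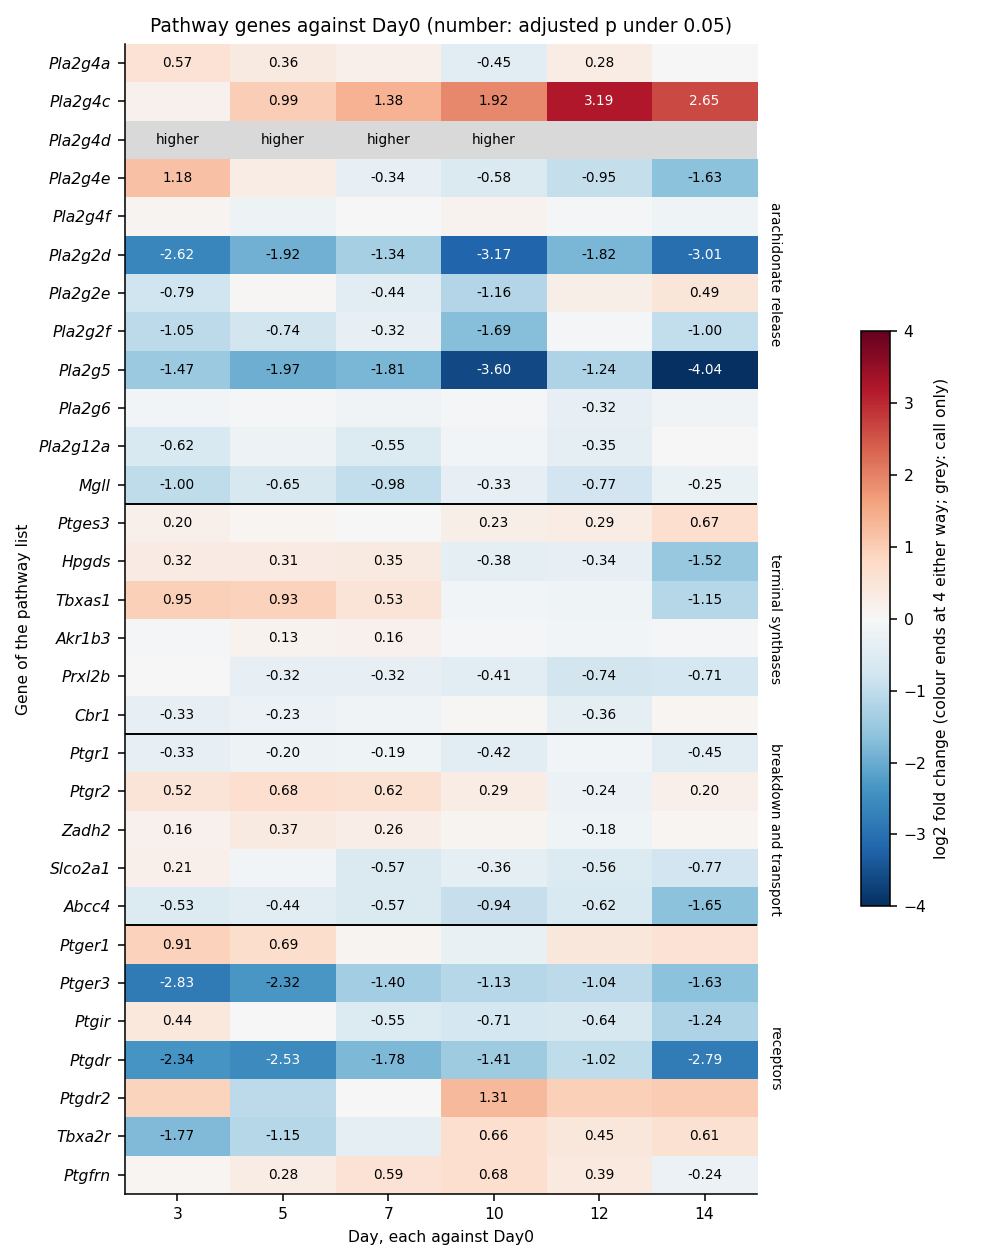
The log2 fold change against Day0 (colour, ending at 4 either way) of the 30 tested genes of the pathway list by role (rows) and day (columns), with the value printed where the edgeR adjusted p was under 0.05. Pla2g4d, at 0 or 1 counts in every Day0 library, is grey with its calls only, and the receptor Ptger3 runs from −2.83 on Day3 to −1.63 on Day14.

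For each member but Ptger2, the 3 genes with the most similar log2 CPM over the 28 libraries were named by Pearson's r, as a description. The libraries share their days, so r mostly reflects the time course. Ptgs2 was closest to S100a8 (r = 0.985), Tnf (0.984) and Nfkbid (0.983). Ptges was closest to Il33 (0.989), Selp (0.982) and Litaf (0.981). Ptgis was nearest to Ms4a7 (0.966), Slc13a3 (0.963) and Ms4a4a (0.959). Ptgds was closest to Efnb1 and Dtnb (0.977 each) and Bdh1 (0.976), and Hpgd to Clec11a (0.948), Ecm2 (0.921) and Dact2 (0.907). Ptgs1 was nearest to Dab1 (0.965), Stxbp6 (0.964) and Krtdap (0.963), and Ptgfr to the mast cell protease gene Mcpt4 (0.962), Tprg and Ccl21a (0.944 each). Ptges2 was closest to Taldo1 (0.919), Slc25a39 (0.91) and Atp5b (0.905), and Ptger4 to D930020B18Rik (0.918), Procr (0.893) and Slc7a1 (0.889).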

How the data were processed

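Total RNA from skin was sequenced in 28 libraries. The authors deposited raw counts per gene symbol and FPKM values made from the same counts. The submitters' processing notes name fastp, R 3.2.0 and build mm10, and the aligner, counting tool, annotation and strand setting are not given in the sources used here. Groups and replicate numbers came from the sample titles. The members and all gene lists were chosen with earlier results of these data known.

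Of 29068 genes, 18107 passed edgeR's expression filter. Counts were scaled by TMM and fitted once over all 28 libraries (21 residual degrees of freedom) with edgeR 4.0.16 quasi-likelihood tests in R 4.3.3, and p-values were Benjamini-Hochberg adjusted over all tested genes, with calls at 0.05. The SE of each log2 fold change was taken as its absolute value over the square root of F. FPKM was used for levels between genes and for the ratios, which were tested by exact permutation. Log2 CPM used a prior count of 2. Alternatives were other scalings and filters, DESeq2 1.42.0, limma 3.58.1 (voom, and log2 FPKM with pseudocounts of 1 and 0.1), fits of the compared days alone, a replicate block, the study's fold limit, and omission of single libraries. The scripts were tested on simulated data. Totals of 36706513 to 40655764 counts set the precision, and low counts such as those of Ptger2 are the least precise.

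Named genes were all members, pathway genes with a called log2 fold change over 1.5 against Day0, and the 3 genes most correlated with each member. Those of Ptger2 are not reported here. Marker lists were also scored for cell types whose course over the days was not set beside a member. In log2 CPM, myofibroblast genes were at 7.13 to 7.48 on Day0, lowest on Day3 (6.86 to 6.96) and highest on Day10 (8.98 to 9.07). Basal and suprabasal keratinocyte genes were at 9.94 to 10.7 on Day0 and lowest on Day3 (9.40 to 9.79). Adipocyte genes were at 7.60 to 8.15 on Day0, lowest on Day5 (7.40 to 7.52) and highest on Day14 (8.05 to 8.24). Promoter sequences came from RefSeq (GRCm38.p6) and gene positions from GENCODE vM21.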

Additional observations from a re-analysis of the deposited data

Results flagged for a closer look

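In 5 of 84 groups of 4 libraries, 1 library lay far from the other 3, with a gap to the nearest past Dixon's limit, where chance gives about 4.2 such groups. Ptgs1 was at 5.01 log2 CPM in Day5 replicate 3 against 5.07 to 5.08 in the others, and Hpgd at 4.58 in Day5 replicate 1 against 4.83 to 4.88. Ptger2 was at 0.49 log2 CPM in Day14 replicate 1 against 0.08 to 0.13, and Ptgfr at 4.33 in Day10 replicate 1 against 4.06 to 4.09. The log2 ratio of Ptges to Hpgd was −0.82 in Day14 replicate 3 against −1.09 to −1.04.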

How the results depend on the processing

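Of the 90 fold changes of members, 90 kept direction and call with DESeq2, RLE scaling or at least 10 counts in every library, and 89 without a filter. Leaving out single libraries kept 687 of 720 values. Same-numbered libraries share only a number (1 of 84 pairs correlated above 0.1, and 8 of 28 libraries best with their own number), and the replicate block changed no call, giving 9, 9, 7, 6, 4 and 8 members called on Day3 to Day14.

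Under the study's fold limit the members called were 3, 3, 1, 1, 1 and 3 on Day3 to Day14, and 1, 3 and 5 for Day7 against Day3, Day14 against Day7 and Day14 against Day3. The pathway counts were 5, 5, 3, 5, 3 and 8, and 1, 5 and 8. Of all tested genes, 18.9%, 13.9%, 9.4%, 9.47%, 7.39% and 14% passed on Day3 to Day14, and 9.02%, 11.8% and 18.6% between the later days. The Day7 count was 4 in the fit of the 2 days alone and the Day12 count 9 against Day0 replicates 2 and 3. With 1 library left out, the members called ranged over 9 to 10, 8 to 9, 5 to 8, 6 to 7, 3 to 6 and 8 to 9 on Day3 to Day14. Shares of all tested genes called were not computed for these fits or for the replicate block, so these counts only describe.

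With 1 library left out, the difference in the log2 ratio of Ptgs2 to Ptgs1 from Day0 ran from 6.71 to 7.44 (Day3), 6.65 to 7.37 (Day5), 4.93 to 5.65 (Day7), 4.45 to 5.17 (Day10), 0.978 to 1.70 (Day12) and 2.26 to 2.98 (Day14). For Ptges to Hpgd it ran from 2.66 to 3.22, 1.60 to 2.16, 0.239 to 0.799, 1.00 to 1.56, −0.28 to 0.28 and −0.041 to 0.52. Against 2 Day0 libraries no exact permutation test of 4 libraries can pass. With Day0 replicates 2 and 3 the first ratio differed by 7.95, 7.88, 6.16, 5.69, 2.21 and 3.49 on Day3 to Day14, and the second by 3.74, 2.68, 1.32, 2.09, 0.80 and 1.04. With replicates 1 and 4 the first differed by 6.14, 6.07, 4.35, 3.87, 0.40 and 1.68 and the second by 2.17, 1.11, −0.25, 0.52, −0.77 and −0.53.

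Values changed sign as follows (all uncalled in the reported fit but the Day14 fall of Hpgd), and the cause was not tested. With Day0 replicates 1 and 4, Ptgs2 was −0.26 on Day12 and −0.13 on Day14, Ptges 0.080 on Day12, Ptgis −0.085 on Day12, Hpgd 0.65, 0.85 and 0.23 on Day7, Day12 and Day14, Ptger2 −0.052 on Day10 and −0.18 on Day12, and Ptger4 0.0039 on Day10. With replicates 2 and 3, Ptges was −0.031 on Day10, Ptges2 0.045 on Day12, Ptgds 0.28 on Day7 and Ptger2 0.70 on Day14. With library totals, Ptges was 0.040 and Ptges2 0.11 on Day12, Ptges2 0.061 for Day14 against Day3, and Ptger4 0.051 on Day10. With upper quartile factors the last 2 were 0.015 and 0.035. Ptger4 on Day10 was 0.0083 without a filter and 0.0093 with the compared days alone. In limma on FPKM with a pseudocount of 1, with or without a minimum, Ptges was 0.045, Ptges2 0.10 and Hpgd 0.022 on Day12, Ptges2 0.063 for Day14 against Day3, and Ptger4 0.045 on Day10, and with a pseudocount of 0.1 these were 0.049, 0.11, 0.031, 0.067 and 0.052, with Ptger2 at 0.047 on Day14 (0.0036 with voom). With 1 library left out, Ptges2 on Day12 ran from −0.081 to 0.012, Ptgis on Day12 from −0.030 to 0.34, Ptgds on Day7 from −0.43 to 0.16, Ptger2 on Day14 from −0.38 to 0.19, and Ptger4 on Day7 from −0.077 to 0.019 and on Day10 from −0.047 to 0.049.

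Library totals in place of TMM raised the median log2 fold change of all genes by 0.143 on Day12, 0.126 on Day14, 0.123 for Day14 against Day7 and 0.183 for Day14 against Day3, and upper quartile factors raised the last by 0.138. The share of called genes that were higher went from 45.8% to 67.4%, 45% to 56.2%, 45.3% to 56.5% and 51% to 64.1% with totals, and with upper quartile factors from 51% to 61.2% in the last and from 51.6% to 63.9% for Day7 against Day3.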
